A study of Mus musculus with 6 samples.

Results

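The genes described here are the 34 genes of the hypoxia-inducible factor (HIF) pathway named on a list of symbols, out of 49523 gene symbols in the count table. The list holds 9 regulators, namely the HIF subunits, their oxygen-sensing hydroxylases and Vhl, and 25 downstream targets. The libraries were RNA sequencing libraries of EO771, a line derived from a mouse mammary carcinoma, with 3 labelled cancer stem cells (CSC) and 3 labelled non-CSC. The labels give the same cell line for both groups and name no genotype, treatment, oxygen level, sort or culture condition for either. They do not say whether the replicates were separate cultures, so each p-value reflects only how far these libraries spread, which may be technical. The design text names the comparison of CSC with non-CSC, and the title of the series is about enhancer activity of a LINE-1 element towards Sema3c, which is not analysed here.

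HIF is a heterodimer of an oxygen-regulated alpha subunit (encoded by Hif1a, Epas1 or Hif3a) and a stable beta subunit (Arnt). When oxygen is present, the prolyl hydroxylases encoded by Egln1, Egln2 and Egln3 mark the alpha subunit, the VHL protein binds the mark and the subunit is destroyed, while the asparaginyl hydroxylase encoded by Hif1an blocks its coactivator contact. When oxygen is scarce the alpha subunit persists, pairs with ARNT at hypoxia response elements and switches on genes of angiogenesis, glycolysis, mitochondrial turnover, pH control and collagen modification, and in mammary tumours such targets are used as marks of poorly oxygenated regions. HIF alpha is controlled mainly at the protein level, and the values here are transcript levels only.

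The CSC libraries held 27099879 to 28205651 counts and the non-CSC libraries 32204112 to 35971131, so depth moved with the group. With every library thinned at random to the smallest total, all 28 tested members kept their direction and their call. Of 5 epithelial markers, 4 averaged at least 1 CPM (library-normalised counts, on library sizes scaled by TMM, the trimmed mean of M-values) and summed with the other one to 2774 to 2935 CPM in CSC and 2593 to 2728 CPM in non-CSC. The keratin genes Krt8, Krt18 and Krt19 made up nearly all of this sum. Epcam fell, with 10.2 CPM in CSC and 21.3 CPM in non-CSC (log2 fold change -1.05, edgeR adjusted p = 7.37e-13). Cdh1, which encodes E-cadherin, averaged 0.751 CPM in CSC and 0.951 CPM in non-CSC. Also read were 4 genes often used, at a high or a low level, to mark mammary cancer stem cells. They were chosen after these data had been seen and with no direction fixed, so their values are no check of the labels. Aldh1a1 averaged 785 ± 7.18 CPM in CSC and 487 ± 13.1 CPM in non-CSC (SD, n = 3 each). Cd44 averaged 773 ± 19.9 CPM in CSC and 688 ± 10.1 CPM in non-CSC, and Cd24a 187 ± 3.47 CPM in CSC and 132 ± 2.85 CPM in non-CSC. The fourth, Prom1, was near the limit of detection, at 0.223 CPM in CSC and 0.227 CPM in non-CSC. Among markers of other cell types, Cd3e, Adgre1, Tek, Lum and Thy1 had no count in any library. The 7 leukocyte markers summed to 35.5 to 36.7 CPM in CSC and 27.1 to 29.1 CPM in non-CSC, but single members moved in opposite directions. Itgam averaged 10.2 CPM in CSC and 0.740 CPM in non-CSC (log2 fold change 3.77), Csf1r 8.06 CPM in CSC and 1.85 CPM in non-CSC (2.12), and Cd68 17.8 CPM in CSC and 25.4 CPM in non-CSC (-0.51), while the general leukocyte marker Ptprc averaged 0.152 CPM in CSC and 0.0864 CPM in non-CSC. The 5 endothelial markers summed to 5.83 to 6.03 CPM in CSC and 1.38 to 1.75 CPM in non-CSC. Most of this was Vwf, at 5.45 CPM in CSC and 0.898 CPM in non-CSC. Pecam1 went the other way, at 0.330 CPM in CSC and 0.586 CPM in non-CSC (log2 fold change -0.81, edgeR adjusted p = 0.0216). The 7 fibroblast markers summed to 1195 to 1242 CPM in CSC and 555 to 589 CPM in non-CSC, almost all of it Dcn, while Col1a1 and Col3a1 averaged 1.06 and 0.119 CPM in CSC and 0.514 and 0.0200 CPM in non-CSC. The part of these marker differences in the results below was not tested.

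Most tested downstream targets on the list were lower in CSC, over a wide range, while the genes that make and restrain HIF differed by much less. Of the 25 targets, 20 passed the filter on low counts, and 18 of these fell and 2 rose by the quasi-likelihood test of edgeR, with p-values adjusted over all 17630 genes (Benjamini-Hochberg, threshold 0.05). Across all genes tested, 66.5% were called, 33.1% lower and 33.4% higher. At least 2-fold lower were 6 of the 20 tested targets, against 4.09% of all genes, and none was at least 2-fold higher, against 8.01%. The tested targets had a median log2 fold change of -0.77, CSC over non-CSC, where all genes had a median of 0.01, and 7.33% of all genes lay below -0.77. Of the 9 regulators, 8 passed the filter, of which 6 fell and 2 rose, with a median of -0.26 and none past 2-fold. The log2 fold changes of the regulators lay between -0.43 and 0.40. By more than any regulator fell 13 of the 20 tested targets, against 17.9% of all genes tested. Further lists of glycolysis genes and of other hypoxia targets, described below, had medians of -0.58 and -0.25, so the contrast with the regulators depends on the list. The tested members passed the filter in all 3 libraries of both groups. Since these are bulk samples, fewer cells expressing a gene and less RNA per cell cannot be told apart.

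**Figure D1:**
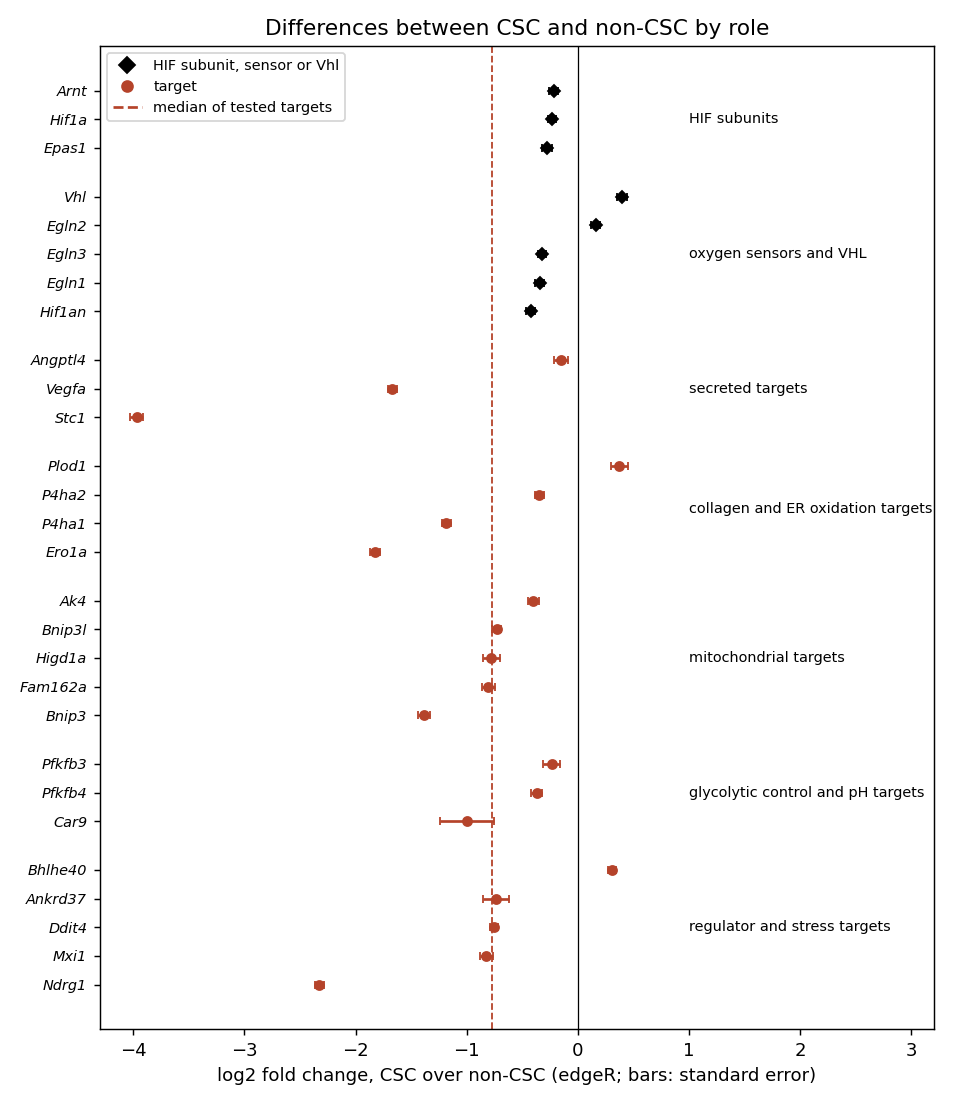
Log2 fold change of CSC over non-CSC for the 28 tested members, grouped by role, with the standard error of the edgeR fit as bars; diamonds are HIF subunits, sensors and Vhl, circles are targets, and the dashed line is the median of the tested targets. The regulators sit between -0.43 and 0.40, while the targets reach -3.97 at Stc1.

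The 25 targets together summed to 1067, 1070 and 1069 CPM in the CSC libraries, against 2298, 2233 and 2262 CPM in the non-CSC libraries. The groups did not overlap in CPM for 18 of the 20 tested targets and for all 8 tested regulators, against 69.3% of all genes tested. Replicates lay close together. The coefficient of variation of the 28 tested members had a median of 4.10% in CSC, with Egln3 lowest at 0.510% and Car9 highest at 30.7%. In non-CSC the median was 3.71%, from 0.712% for Egln2 to 11.7% for Higd1a. No library was the lowest or the highest of its group for more than 14 of the 28 genes.

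**Figure D2:**
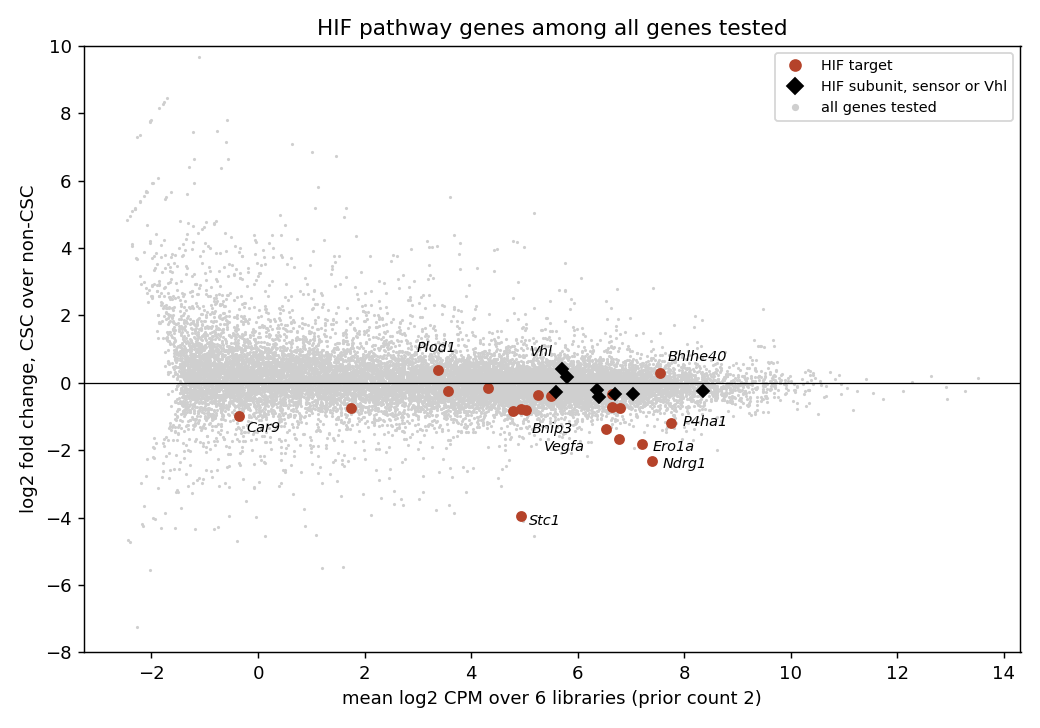
Each grey point is one of the 17630 genes tested, with its mean log2 CPM over the 6 libraries on the horizontal axis and its log2 fold change of CSC over non-CSC on the vertical axis; circles are HIF targets and diamonds are regulators. The targets with the largest falls, Stc1, Ndrg1, Ero1a and Vegfa, are named beside their points, and the diamonds lie between -0.43 and 0.40.

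All 3 tested subunit genes were slightly lower in CSC, as were 33.1% of all genes tested. Hif1a, which encodes the most widely expressed alpha subunit, lies on chromosome 12 at 73901324 to 73947554 (GRCm38). It had 297, 312 and 299 CPM in the CSC libraries, against 357, 347 and 364 CPM in the non-CSC libraries. Every CSC library was below every non-CSC library, and the log2 fold change was -0.23 ± 0.036 (SE; edgeR adjusted p = 4.63e-06). Epas1, which encodes HIF-2alpha, had 44.4, 44.5 and 43.3 CPM in CSC libraries, against 54.4, 54.4 and 51.8 CPM in non-CSC libraries. Its log2 fold change of -0.28 ± 0.044 stood beside -0.23 for Hif1a (SE; edgeR adjusted p = 7.06e-06). Arnt, the shared beta subunit, had 75.5, 76.7 and 76.6 CPM in CSC libraries and 90.4, 88.3 and 87.5 CPM in non-CSC libraries, a log2 fold change of -0.22 ± 0.038 (SE; edgeR adjusted p = 2.61e-05). Hif3a, whose product can act against the other alpha subunits, was not tested. It had no count in CSC and 1 count in non-CSC, where a count of 0 allows up to 0.111 CPM in the shallowest library.

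Per length of the longest annotated transcript, Hif1a was by far the most abundant subunit gene, at 64.0 ± 1.71 CPM per kb in CSC and 75.3 ± 1.83 CPM per kb in non-CSC (SD, n = 3 each). Arnt came next, at 17.6 ± 0.159 CPM per kb in CSC and 20.5 ± 0.353 CPM per kb in non-CSC. Epas1 was lowest, at 7.99 ± 0.127 CPM per kb in CSC and 9.70 ± 0.276 CPM per kb in non-CSC. Epas1 made up 10.9% to 11.4% of the sum of Hif1a and Epas1 on this per-length scale in CSC libraries and 10.9% to 11.9% in non-CSC libraries, and the groups overlapped. Likewise, the ratio of Hif1a to Arnt on this scale was 3.58 to 3.72 in CSC and 3.60 to 3.81 in non-CSC.

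The oxygen sensors moved in both directions. Hif1an, the asparaginyl hydroxylase gene, had the largest fall among the regulators, with 71.7, 70.1 and 75.8 CPM in CSC libraries against 96.6, 97.5 and 98.4 CPM in non-CSC libraries. Its log2 fold change was -0.43 ± 0.040 (SE; edgeR adjusted p = 2.26e-09). Egln1, which encodes PHD2, the main prolyl hydroxylase acting on HIF-1alpha and itself a HIF target, had 92.6, 91.6 and 94.7 CPM in CSC libraries and 111, 120 and 123 CPM in non-CSC libraries, a log2 fold change of -0.34 ± 0.041 (SE; edgeR adjusted p = 1.18e-07). Egln3, which encodes PHD3 and is among the most hypoxia-inducible of the sensors, had 119, 118 and 118 CPM in CSC libraries and 146, 150 and 148 CPM in non-CSC libraries. The fall of Egln3, -0.32 ± 0.035 on the log2 scale (SE; edgeR adjusted p = 2.92e-08), was no larger than that of Egln1, and both stood well short of the median target. Egln2, which encodes PHD1 and is known to be little induced by hypoxia, rose instead. It had 60.2, 59.2 and 56.9 CPM in CSC libraries against 52.2, 52.9 and 52.8 CPM in non-CSC libraries, a log2 fold change of 0.16 ± 0.043 (SE; edgeR adjusted p = 0.00223).

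Vhl, the substrate receptor of the ubiquitin ligase that removes hydroxylated HIF alpha, was the regulator with the largest rise. It lies on chromosome 6 at 113623994 to 113631634 and had 60.5, 61.8 and 57.0 CPM in CSC libraries against 46.3, 43.8 and 46.05 CPM in non-CSC libraries. The groups did not overlap, and the log2 fold change was 0.40 ± 0.046 (SE; edgeR adjusted p = 7.05e-08), a level 31.7% higher. Per length of the longest annotated transcript, the order of the sensors and Vhl changed between the groups. This order depends on the length taken, and which transcripts were expressed was not tested. In CSC it was Egln3 at 44.5 ± 0.227, Egln2 at 27.9 ± 0.818, Egln1 at 25.9 ± 0.451, Vhl at 21.4 ± 0.899 and Hif1an at 11.7 ± 0.471 CPM per kb (SD, n = 3). In non-CSC it was Egln3 at 55.5 ± 0.734, Egln1 at 32.8 ± 1.78, Egln2 at 24.96 ± 0.178, Vhl at 16.3 ± 0.488 and Hif1an at 15.7 ± 0.142 CPM per kb (SD, n = 3), where the libraries of Vhl and Hif1an overlapped. Of the summed prolyl hydroxylase transcripts on this scale, Egln2 made up 27.6% to 28.9% in CSC libraries and 21.8% to 22.4% in non-CSC libraries, which did not overlap.

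**Figure D3:**
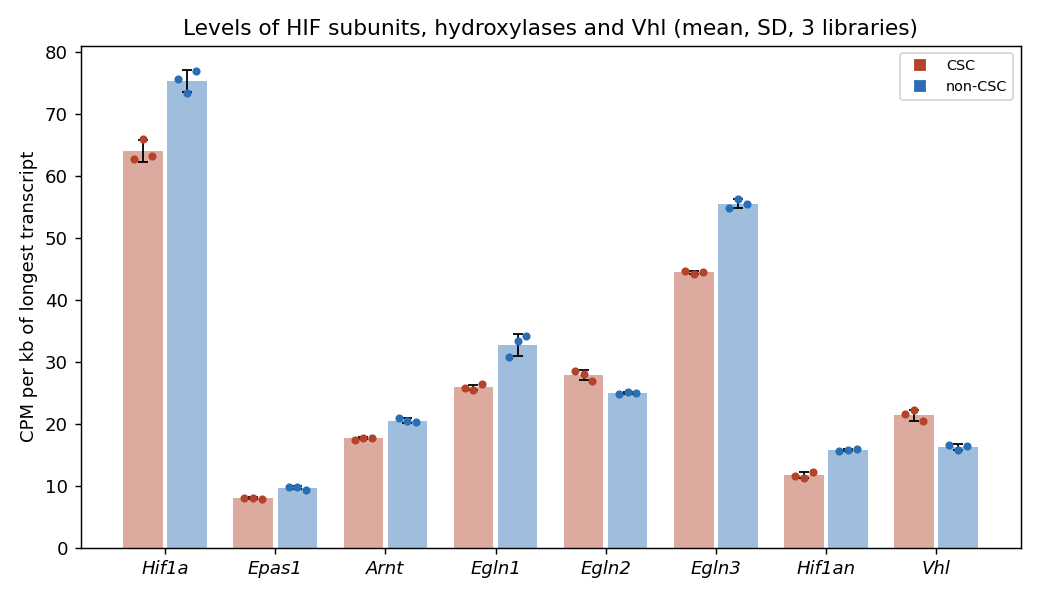
Bars give the mean level in CPM per kb of longest transcript for each HIF subunit, hydroxylase and Vhl, with CSC left of non-CSC; error bars are the SD of 3 libraries and points are the libraries. Hif1a and Egln3 are the highest in both groups, and Egln2 and Vhl are the pair that stand higher in CSC.

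Of the 5 genes for secreted products 3 were tested, and their log2 fold changes had the widest range of the groups by role, -3.97 to -0.15. Stc1 encodes stanniocalcin 1, a secreted glycoprotein of calcium and phosphate balance, and lies on chromosome 14 at 69029289 to 69041401. It had 6.93, 7.77 and 8.403 CPM in CSC libraries, against 126, 118 and 119 CPM in non-CSC libraries. All 3 CSC libraries were at a small fraction of the non-CSC level, and the log2 fold change was -3.97 ± 0.059 (SE; edgeR adjusted p = 6.19e-24), the largest of the list; 0.125% of all genes tested lay lower. Vegfa, the angiogenic growth factor gene on chromosome 17 at 46016993 to 46032377, had 64.4, 60.4 and 58.7 CPM in CSC libraries against 191, 197 and 195 CPM in non-CSC libraries. It was 3.18-fold lower in CSC, with a log2 fold change of -1.67 ± 0.040 (SE; edgeR adjusted p = 3.54e-20).

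Angptl4, a secreted inhibitor of lipoprotein lipase, stood apart from these. It had 19.1, 19.9 and 17.5 CPM in CSC libraries and 22.0, 21.0 and 19.8 CPM in non-CSC libraries, so the groups overlapped. Its call (log2 fold change -0.15 ± 0.063, SE; edgeR adjusted p = 0.0397) held under 9 of 16 alternatives, with adjusted p-values up to 0.238. Leaving out non-CSC replicate 1, non-CSC replicate 2 or CSC replicate 3 gave log2 fold changes of -0.12, -0.15 and -0.10, with edgeR adjusted p-values of 0.102, 0.0705 and 0.203. Adm, which encodes the vasodilator peptide adrenomedullin, was too low to be tested, with 1, 6 and 3 counts in CSC libraries against 15, 11 and 16 counts in non-CSC libraries. The ratio of its CSC to non-CSC level was 0.285, with an exact binomial 95% interval of 0.127 to 0.576 that covers counting error only. Without the filter on low counts its log2 fold change was -1.80 ± 0.47 (SE; edgeR adjusted p = 0.000412). Stc2, the paralog of Stc1, had no count in CSC and 1 count in non-CSC, and no fold is given.

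Genes that modify collagen or oxidise protein in the endoplasmic reticulum were split. Ero1a encodes the oxidoreductase that feeds disulphide formation, and lies on chromosome 14 at 45283087 to 45318572. It had 75.0, 80.2 and 81.6 CPM in CSC libraries against 263, 286 and 290 CPM in non-CSC libraries, a 3.54-fold lower level with a log2 fold change of -1.83 ± 0.044 (SE; edgeR adjusted p = 8.14e-20). P4ha1 encodes the main catalytic alpha subunit of collagen prolyl 4-hydroxylase, on chromosome 10 at 59323197 to 59373304. In CSC libraries it had 144, 141 and 146 CPM, against 341, 318 and 322 CPM in non-CSC libraries, and its log2 fold change was -1.18 ± 0.037 (SE; edgeR adjusted p = 5.25e-18). P4ha2, which encodes the alternative alpha subunit, fell far less, to 89.5, 88.1 and 87.0 CPM in CSC libraries against 118, 109 and 110 CPM in non-CSC libraries (log2 fold change -0.35 ± 0.040, SE; edgeR adjusted p = 6.20e-08). On the per-length scale P4ha1 stood at 35.6 ± 0.639 CPM per kb and P4ha2 at 28.8 ± 0.410 CPM per kb in CSC, against 80.9 ± 2.94 and 36.7 ± 1.69 CPM per kb in non-CSC (SD, n = 3).

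The lysyl hydroxylase gene Plod1 went the other way. It had 12.3, 11.4 and 11.6 CPM in CSC libraries against 8.60, 8.53 and 10.1 CPM in non-CSC libraries, with no overlap and a log2 fold change of 0.37 ± 0.078 (SE; edgeR adjusted p = 0.000235). Its paralog Plod2, a well known hypoxia target in other cells, had no count in CSC and 2 counts in non-CSC. Lox, the collagen cross-linking lysyl oxidase gene, had 1 count in CSC and none in non-CSC. Both were too low for a comparison at this depth.

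The 5 mitochondrial targets were all tested, and all 5 fell, against 33.1% of all genes tested. Their log2 fold changes ran from -1.39 for Bnip3 to -0.40 for Ak4. Bnip3, which encodes a receptor that marks mitochondria for autophagy, lies on chromosome 7 at 138890836 to 138909506. It had 53.6, 63.2 and 55.9 CPM in CSC libraries against 158, 146 and 148 CPM in non-CSC libraries, and its log2 fold change was -1.39 ± 0.051 (SE; edgeR adjusted p = 2.85e-14). Bnip3l, which encodes the related receptor NIX, fell by 0.73, with 76.4, 77.0 and 78.4 CPM in CSC libraries against 132.5, 121 and 131 CPM in non-CSC libraries. Both are read with a limit. Of the 50-base words of the longest transcript, 21.9% for Bnip3 and 23.4% for Bnip3l also occur in transcripts of other genes, mostly their pseudogenes. The pseudogenes were counted at 3.69 CPM (Gm16439) and 6.38 CPM (Bnip3l-ps) in CSC and 9.75 and 11.8 CPM in non-CSC. In addition, 22.3% of the exon bases of Bnip3 are also exon bases of Gm45507, which has no row in the count table.

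Fam162a, which encodes a mitochondrial protein linked to hypoxic cell death, had 23.6, 27.3 and 22.8 CPM in CSC libraries against 41.8, 41.9 and 45.1 CPM in non-CSC libraries (log2 fold change -0.81 ± 0.060, SE; edgeR adjusted p = 8.49e-11). Higd1a, whose product associates with respiratory chain complexes, had 25.02, 23.1 and 22.4 CPM in CSC libraries against 34.96, 43.7 and 42.4 CPM in non-CSC libraries. Non-CSC replicate 1 lay well below the other non-CSC libraries for Higd1a, but still above every CSC library, and the log2 fold change was -0.78 ± 0.076 (SE; edgeR adjusted p = 3.53e-07). Ak4, a mitochondrial adenylate kinase gene, changed least of this group, with 38.0, 38.8 and 41.2 CPM in CSC libraries and 51.9, 50.6 and 53.2 CPM in non-CSC libraries (log2 fold change -0.40 ± 0.047, SE; edgeR adjusted p = 8.17e-08). These 3 values are uncertain as counted: 22.5% of the exon bases of Higd1a and 19.8% of those of Fam162a are also exon bases of other genes, and 11.3% of the 50-base words of Ak4 occur in other transcripts.

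Glycolytic control and pH targets fell modestly or were barely detected. Pfkfb3 and Pfkfb4 encode the bifunctional enzymes that set the level of fructose-2,6-bisphosphate, an activator of glycolysis. Pfkfb4 had 33.1, 34.4 and 33.3 CPM in CSC libraries against 45.1, 41.9 and 43.5 CPM in non-CSC libraries, a log2 fold change of -0.37 ± 0.048 (SE; edgeR adjusted p = 3.64e-07). Pfkfb3 had 12.2, 10.2 and 10.3 CPM in CSC libraries and 11.8, 13.6 and 13.03 CPM in non-CSC libraries, which overlapped. Its call (log2 fold change -0.24 ± 0.078, SE; edgeR adjusted p = 0.0107) held under 12 of 16 alternatives. Without non-CSC replicate 2, CSC replicate 2 or CSC replicate 3 the log2 fold change was -0.20 each time, with edgeR adjusted p-values of 0.0561, 0.0583 and 0.0552. Car9, which encodes the surface carbonic anhydrase IX that serves as a classic mark of hypoxic tumour, was low throughout. It had 19, 12 and 12 counts in CSC libraries against 32, 38 and 33 counts in non-CSC libraries, and its log2 fold change was -0.997 ± 0.25 (SE; edgeR adjusted p = 0.00111). The related Car12 had 1 count in CSC and none in non-CSC.

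Among targets that act on transcription or stress signalling, Ndrg1 had the second largest fall of the list. Ndrg1, which encodes a stress-responsive protein linked to differentiation and metastasis suppression, lies on chromosome 15 at 66929318 to 66969641. It had 75.0, 73.7 and 76.0 CPM in CSC libraries against 392, 361 and 373 CPM in non-CSC libraries, 5.01-fold lower, with a log2 fold change of -2.33 ± 0.040 (SE; edgeR adjusted p = 6.11e-23). Mxi1, which encodes a repressor that competes with MYC for its partner MAX, had 19.3, 20.5 and 22.5 CPM in CSC libraries against 37.8, 37.0 and 35.6 CPM in non-CSC libraries (log2 fold change -0.83 ± 0.057, SE; edgeR adjusted p = 1.22e-11). Ddit4, which encodes REDD1, an inhibitor of mTORC1 signalling, had 85.4, 86.8 and 83.3 CPM in CSC libraries against 148, 144 and 140.0 CPM in non-CSC libraries (log2 fold change -0.76 ± 0.037, SE; edgeR adjusted p = 2.50e-14). Ankrd37, which encodes an ankyrin repeat protein, had 2.54, 2.33 and 2.76 CPM in CSC libraries against 4.49, 4.29 and 3.96 CPM in non-CSC libraries (log2 fold change -0.74 ± 0.12, SE; edgeR adjusted p = 8.46e-06). Its value is uncertain, because 26.4% of its exon bases are also exon bases of Ufsp2 or Lrp2bp, and Ufsp2 averaged 28.7 CPM in CSC and 44.1 CPM in non-CSC.

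Bhlhe40 was the other target that rose. It encodes a basic helix-loop-helix repressor tied to hypoxia and the circadian clock, and had 211, 203 and 208 CPM in CSC libraries against 169, 169 and 166 CPM in non-CSC libraries. The groups did not overlap and the log2 fold change was 0.30 ± 0.035 (SE; edgeR adjusted p = 5.76e-08), the call holding under all 16 alternatives. Of the targets, Ero1a, Vegfa, Ddit4 and Stc2 are also known to be induced through the stress factors ATF4 or CHOP. All 3 of these that were tested fell. Of the other 21 targets, 17 were tested and 15 were lower and 2 higher, against 33.1% lower and 33.4% higher over all genes, with a median log2 fold change of -0.74. The part of ATF4 or CHOP was not tested.

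**Figure D4:**
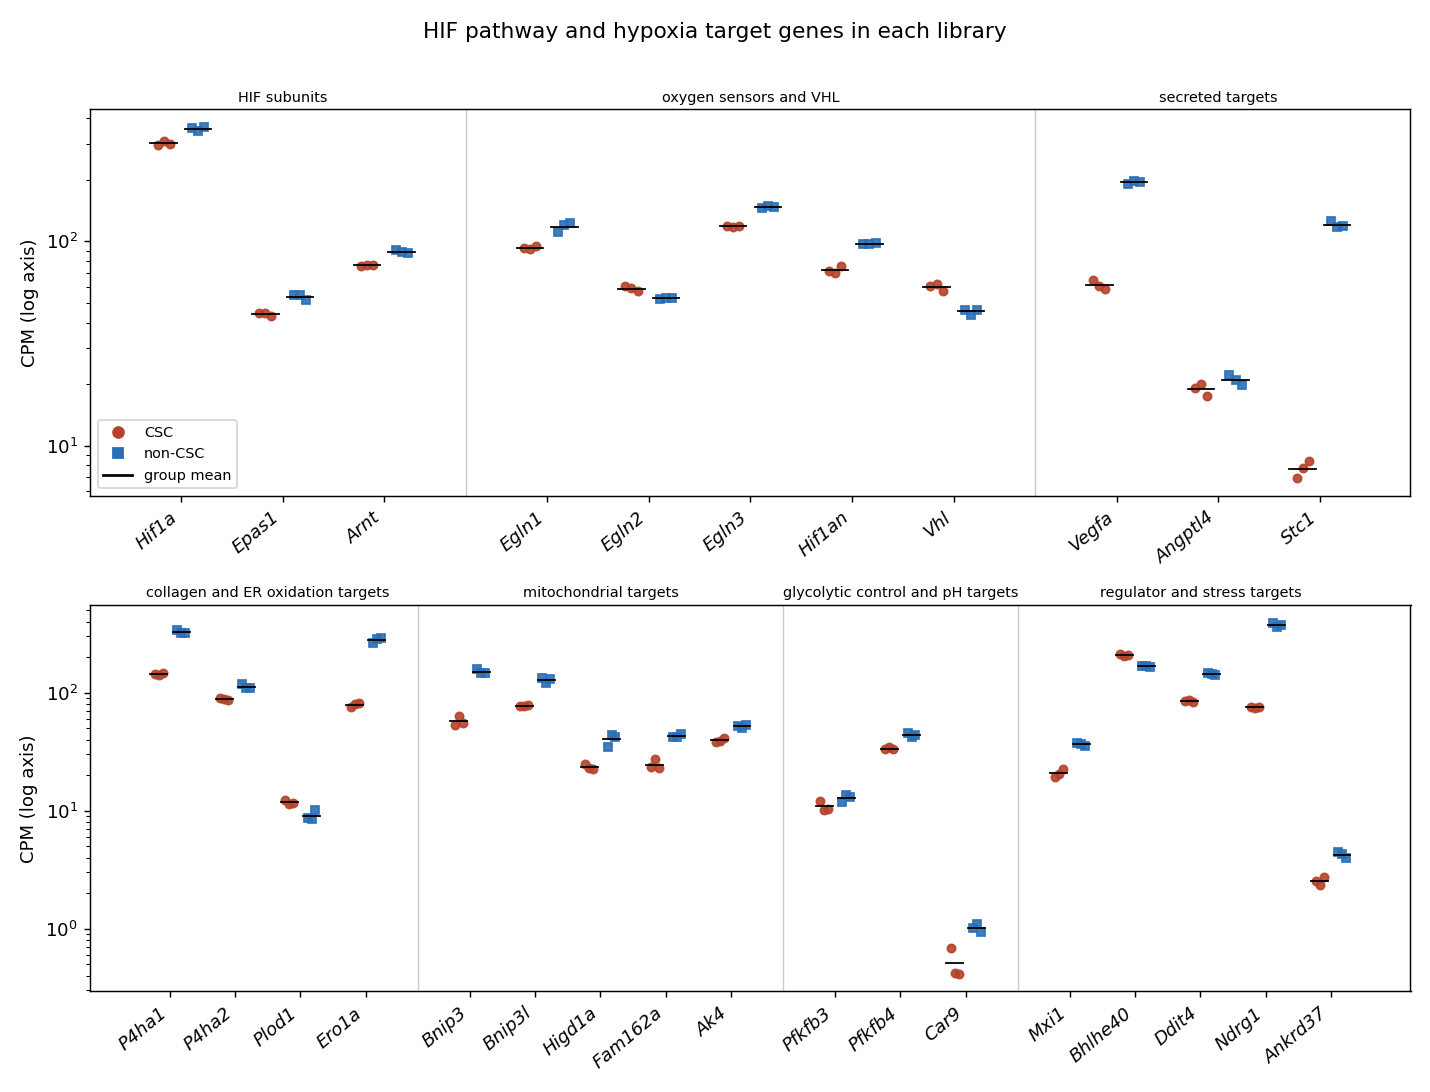
Level of each tested member in every library in CPM on a log axis, with CSC circles left of non-CSC squares and a line at each group mean, grouped by role. The groups separate for 26 of the 28 genes, against 69.3% of all genes tested. Angptl4 and Pfkfb3 overlap, and Egln2, Vhl, Plod1 and Bhlhe40 are higher in CSC.

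Promoter sequences were read for the members because so many targets moved together. HIF binds a core written ACGTG or GCGTG, and both were searched on both strands in windows of 300 bases, from 250 before to 50 after an annotated start (RefSeq, GRCm38.p6). A window was found for 26 members; Epas1, Angptl4, Stc1, Plod2, Lox, Bnip3l, Bhlhe40 and Ndrg1 are the others. ACGTG was present in 55.9% of the 34 windows of these members, against 19.6% of all 32851 windows, and either core in 85.3% against 43.8%. The member windows were also richer in G and C, 65.1% on average against 53.8%, and both cores contain CG. Most members are on the list as known HIF targets, so a high share of the HIF core is no independent result. Windows are also not genes, as Ak4 has 4 and Mxi1 has 3. Of the 15 tested targets with a window, 13 held ACGTG in at least one of their windows and all 15 held one of the cores. No such share per gene was taken over all genes. The 250 bases before the start are printed for 5 targets that fell and for Plod1 and Vhl, which rose. Each is given 5′ to 3′ on the strand of the gene, with each core in capitals. The printed genes do not stand for all members: Egln2 rose and holds both cores, Hif1an fell and holds neither, and they are not printed.
Ero1a, chr14:45318573-45318822, minus strand: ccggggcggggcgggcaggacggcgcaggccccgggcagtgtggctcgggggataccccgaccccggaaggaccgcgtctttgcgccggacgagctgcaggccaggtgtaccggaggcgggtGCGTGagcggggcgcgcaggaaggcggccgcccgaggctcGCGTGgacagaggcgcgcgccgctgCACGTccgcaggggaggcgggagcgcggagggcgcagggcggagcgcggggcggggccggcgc
P4ha1, chr10:59323046-59323295, plus strand: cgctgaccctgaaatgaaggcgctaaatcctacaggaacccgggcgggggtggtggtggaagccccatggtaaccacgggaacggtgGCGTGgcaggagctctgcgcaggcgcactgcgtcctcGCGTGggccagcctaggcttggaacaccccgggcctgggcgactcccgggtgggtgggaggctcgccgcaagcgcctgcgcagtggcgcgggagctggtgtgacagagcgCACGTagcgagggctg
Bnip3, chr7:138909507-138909756, minus strand: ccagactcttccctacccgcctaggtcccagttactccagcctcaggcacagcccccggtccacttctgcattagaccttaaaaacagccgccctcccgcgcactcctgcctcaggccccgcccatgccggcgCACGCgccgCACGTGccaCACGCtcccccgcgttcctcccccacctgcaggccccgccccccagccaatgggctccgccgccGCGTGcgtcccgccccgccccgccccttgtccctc
Ankrd37, chr8:45999851-46000100, minus strand: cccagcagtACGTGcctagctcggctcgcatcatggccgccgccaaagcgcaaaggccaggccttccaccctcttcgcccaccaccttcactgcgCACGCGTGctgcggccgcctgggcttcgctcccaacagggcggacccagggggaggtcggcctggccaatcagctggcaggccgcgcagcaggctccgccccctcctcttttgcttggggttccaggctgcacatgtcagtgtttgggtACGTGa
Fam162a, chr16:36071562-36071811, minus strand: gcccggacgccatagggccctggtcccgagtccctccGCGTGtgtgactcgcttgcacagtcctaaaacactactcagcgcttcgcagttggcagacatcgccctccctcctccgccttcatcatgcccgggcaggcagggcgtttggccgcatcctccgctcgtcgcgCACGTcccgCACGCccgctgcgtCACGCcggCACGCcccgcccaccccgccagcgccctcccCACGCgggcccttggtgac
Plod1, chr4:147936777-147937026, minus strand: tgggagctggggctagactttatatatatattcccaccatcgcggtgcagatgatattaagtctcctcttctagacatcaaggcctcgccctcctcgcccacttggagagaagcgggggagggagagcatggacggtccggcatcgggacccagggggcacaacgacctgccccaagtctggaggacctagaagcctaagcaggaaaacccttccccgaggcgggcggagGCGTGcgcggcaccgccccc
Vhl, chr6:113623744-113623993, plus strand: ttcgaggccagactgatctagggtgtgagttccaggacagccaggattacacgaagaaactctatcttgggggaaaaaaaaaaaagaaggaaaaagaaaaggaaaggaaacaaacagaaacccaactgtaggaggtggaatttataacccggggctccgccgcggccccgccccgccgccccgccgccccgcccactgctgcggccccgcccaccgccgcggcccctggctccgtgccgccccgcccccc

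In these windows Ero1a carries a CACGT, which is ACGTG read on the other strand, beginning 63 bases before the start, with GCGTG beginning 128 and 88 bases before it. Bnip3, with its log2 fold change of -1.39, has the palindrome of both overlapping readings beginning 108 bases before the start, flanked by CACGC. In Ankrd37 an ACGTG begins 6 bases before the start, and in P4ha1 a CACGT begins 16 bases before it. Fam162a holds 4 copies of CACGC and a CACGT beginning 81 bases before the start. Plod1 holds only GCGTG, and the Vhl window holds neither core. The 13 tested targets with ACGTG in a window all fell, with log2 fold changes of -1.83 to -0.24 and a median of -0.81. Only 2 tested targets with a window lacked it, Pfkfb4 at -0.37 and Plod1 at 0.37. Split by GCGTG instead, the order was reversed, with a median of -0.76 for the 13 targets with it and -0.91 for the 2 without. Groups of 2 are too small for a comparison. With or without a window, 18 of the 20 tested targets fell, against 33.1% of all genes tested. Among the regulators, Egln2, which rose, has ACGTG beginning 48 bases before one start, and Hif1an, with neither core, fell. The starts used for P4ha1 and Ankrd37 lie inside the outer bounds annotated for these genes. A match of letters is no evidence of binding.

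Position along the chromosomes was compared because a gene's level can move together with that of its neighbours. For each tested member, the median log2 fold change of the 30 nearest tested genes on its chromosome was taken. The 20 tested targets lie on 13 chromosomes, their neighbours' medians lay between -0.25 and 0.29, and 18 of the 20 were below their neighbours. These are the same 18 that fell, so the count adds no separate result. No share below the neighbours was taken over all genes tested. Over all 20, the median difference from the neighbours was -0.74 on the log2 scale. Plod1 and Bhlhe40 were above theirs, by 0.27 and 0.13. Among the 8 regulators, 5 were below their neighbours, with a median difference of -0.13. The neighbours of Hif1a on chromosome 12 had a median of -0.39, so that Hif1a itself stood 0.16 above them, and Egln3, also on chromosome 12, had neighbours at -0.26 and differed from them by -0.06. Neighbours of Hif1an, on chromosome 19, had a median of -0.23. By contrast, the genes around Egln1 had a median of 0.27, those around Vhl 0.01, those around Epas1 0.02 and those around Arnt 0.04. The part of these neighbouring levels in that of Hif1a was not tested.

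**Figure D5:**
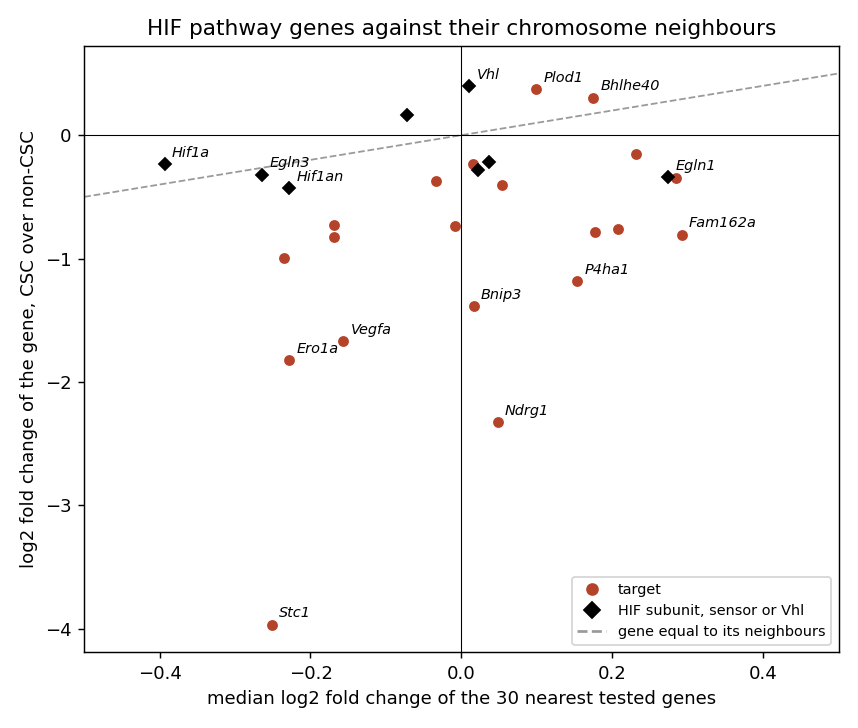
For each tested member, the median log2 fold change of its 30 nearest tested genes is on the horizontal axis and its own log2 fold change on the vertical axis, both CSC over non-CSC; the dashed line marks a gene equal to its neighbours. Most targets lie far below the line, while Hif1a lies above it and Egln3 close to it.

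Further genes of the pathway were described from fixed lists. Of 15 partners of HIF, all tested, 7 fell and 4 rose, with a median log2 fold change of -0.11, where 33.1% of all genes tested were lower and 33.4% higher. Siah2, which encodes a ubiquitin ligase that removes prolyl hydroxylases under hypoxia, had 22.9, 22.8 and 22.2 CPM in CSC libraries against 52.7, 47.7 and 47.4 CPM in non-CSC libraries, a log2 fold change of -1.12 ± 0.053 (SE; edgeR adjusted p = 1.04e-14). Cited2, a HIF-inducible competitor for the coactivator p300, fell by 0.67, the chaperone gene Hsp90aa1 by 0.60 and Mcm7 by 0.33 on the log2 scale. The coactivator genes and the VHL ligase subunits were named after their values were seen. Neither coactivator passed the test: Ep300 averaged 97.03 CPM in CSC and 100.02 CPM in non-CSC (log2 fold change -0.04), and Crebbp 134 CPM in CSC and 140 CPM in non-CSC (log2 fold change -0.06). The subunits of the VHL ligase were split, Eloc and Rbx1 rising by 0.20 and 0.21, Cul2 with a log2 fold change of -0.25 and Elob not called at -0.11. Arnt2, chosen after its values were seen, was the single partner at least 2-fold higher, at 0.484 CPM in CSC and 0.107 CPM in non-CSC, far under Arnt.

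Glucose uptake and glycolysis genes that HIF is known to induce were mostly lower in CSC. Of 20, 19 were tested, 15 fell and 3 rose, against 33.1% lower and 33.4% higher over all genes, with a median log2 fold change of -0.58. Aldoc had 5.91, 6.43 and 6.03 CPM in CSC libraries against 17.1, 17.1 and 16.1 CPM in non-CSC libraries. Pdk1, which encodes the kinase that shuts pyruvate out of the citrate cycle, had 75.1, 80.3 and 79.9 CPM in CSC libraries against 177, 177 and 177 CPM in non-CSC libraries. The log2 fold change was -0.91 for the glucose transporter gene Slc2a1 and -0.86 for Pgk1. The 3 that rose, named after their values were seen, were the hexokinase gene Hk2 (361 CPM in CSC and 206 CPM in non-CSC), Slc16a3 and Gbe1. The last 2 were low, Slc16a3 at 1.20 CPM in CSC and 0.669 CPM in non-CSC, and Gbe1 at 4.90 and 3.44 CPM.

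Other hypoxia targets were more mixed. Of 26, 23 were tested, 13 fell and 5 rose, against the same shares over all genes, with a median log2 fold change of -0.25. Hmox1, the heme oxygenase gene, fell by 1.13 and the mitochondrial protease gene Lonp1 by 1.05 on the log2 scale. Tfrc, the transferrin receptor gene, which is also controlled by iron, rose, with 195, 205 and 202 CPM in CSC libraries against 69.4, 68.5 and 74.9 CPM in non-CSC libraries and a log2 fold change of 1.4998 ± 0.040 (SE; edgeR adjusted p = 3.05e-19). Edn1, which encodes endothelin 1 and was chosen after its values were seen, averaged 7.49 CPM in CSC and 0.494 CPM in non-CSC, a log2 fold change of 3.92 ± 0.14 (SE; edgeR adjusted p = 1.05e-16). Among histone demethylase genes, also chosen after their values were seen, Kdm3a, a common hypoxia mark, averaged 56.9 CPM in CSC and 58.8 CPM in non-CSC and was not called (log2 fold change -0.04, edgeR adjusted p = 0.376), while Kdm4b and Kdm4c had log2 fold changes of -0.55 and -0.58.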

How the data were processed

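Per the labels' protocols, RNA was isolated by Trizol and 1.3 ug entered each NEBNext Ultra II library. The authors deposited raw read counts per gene symbol for 6 libraries, whole numbers with no normalization, made with GRCm38 according to the submitters' processing notes. No source used here names the aligner, counter, annotation, strand setting or filters, so overlapping genes cannot be told apart by strand. No row lacked a gene name. Columns were matched to samples by group word and replicate number. Replicates of a group differed by more than sampling noise (chi-square per degree of freedom 3.21 to 7.30, minimum 20 counts per gene and pair), and all 6 libraries were kept.

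The filterByExpr function of edgeR kept 17630 genes, and TMM gave scaling factors of 0.974 to 1.03. CSC and non-CSC were compared with the quasi-likelihood test of edgeR 4.0.16 (R 4.3.3, robust, no covariate), with p-values adjusted by Benjamini-Hochberg over the whole table and a threshold of 0.05. A standard error is the log2 fold change divided by the square root of F. The common biological coefficient of variation was 4.11%, so small differences pass the test. The procedure was tested on simulated counts in which a small share of the genes was changed. In the real counts 66.5% of all genes were called, so that test cannot show how the scaling behaves here. Floors use 3 counts and, like intervals, cover counting error only, as no molecular identifiers are described and PCR copies of 1 molecule may be counted more than once.

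Positions and promoters came from RefSeq (GRCm38.p6). Lengths, exon overlap and shared 50-base words came from GENCODE M21 transcripts, in which all 34 members were matched. Only the larger overlaps are given with the genes. Smaller ones include 9.29% of the exon bases of Car9, 8.43% of Ndrg1, 8.11% of Hif1a and 5.46% of Stc1. The alternatives were scaling by RLE, upper quartile or library size, a filter at 1 count or at a mean of 50 counts, DESeq2 1.42.0, limma-voom 3.58.1, the robust setting off, thinning to the smallest library, leaving out each library, and a replicate block. The members and lists were chosen with earlier results of these data known. By rule, all members are described, and up to 4 genes of each further list whose change was largest, from genes past the threshold that averaged 5 CPM or more. Cell type markers are described by their sums, with members named after their values were seen; other names outside the rule are marked in the text. 1 gene that the rule names is not reported here.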

Additional observations from a re-analysis of the deposited data

How the results depend on the processing

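Under the 16 alternatives, 436 of 447 values of single members kept their direction and their side of the threshold, 11 kept the direction but lost the call, and none reversed. All 11 belong to Angptl4 and Pfkfb3. The tested targets had 16 to 18 lower and 2 higher, and the tested regulators 6 lower and 2 higher, under every alternative. The count of all genes called ranged from 9859 to 12763. Their balance moved with scaling: 4973 were lower and 6775 higher with library-size scaling, and 5066 lower and 6700 higher with upper-quartile scaling, against 5838 lower and 5894 higher with TMM.

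The median log2 fold change of the targets was -0.71 with upper-quartile scaling, -0.70 with library-size scaling and -0.73 with a filter at a mean of 50 counts, where Car9 was not tested. That of the regulators was -0.20, -0.19 and -0.23 under these settings and -0.28 with no filter beyond 1 count. That of all genes was 0.0699 with upper-quartile and 0.0767 with library-size scaling, 0.00527 with RLE scaling, 0.00581 with DESeq2, -0.0140 with no filter and 0.000258 with the filter at 50 counts. Leaving out each library gave medians of -0.78 to -0.75 for targets, -0.28 to -0.25 for regulators and -0.000375 to 0.00988 for all genes. The SD of each median between replicates was under 0.03. The causes of the shifts were not tested.

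Same-numbered libraries did not deviate together (r of -0.05 to 0.01 over 13482 genes), so the numbers were not taken as pairs. With the replicate block 11680 genes were called, 5812 lower and 5868 higher, and every member kept its call, with medians of -0.77 for targets and -0.26 for regulators. Depth limits Hif3a, Adm, Stc2, Plod2, Lox and Car12, which were at or near 0, and Car9, whose level rests on 12 to 38 counts a library.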
